A study of Mus musculus with 8 samples.

Results

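Mitochondrial ribosomal protein genes encode the proteins of the ribosome inside mitochondria. They were taken here as every gene whose mouse symbol starts with Mrpl or Mrps followed by a digit, which gave 78 of the 15359 genes in the deposited count table. By symbol, 49 belong to the large subunit (Mrpl) and 29 to the small subunit (Mrps). The 78 genes have 85 rows, and the row of highest total count was used for a gene with several. No member was lost to the filter on low counts: all 78 were among the 15074 genes tested.

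RNA with poly(A) tails was sequenced from the ventral midbrain, the brain region of the dopaminergic neurons, in 4 Ercc1 delta/+ and 4 wild type mouse samples of a mixed FVB:C57BL/6J background on a regular diet. Ercc1 delta/+ mice carry 1 mutant (delta) and 1 wild type allele of Ercc1, a gene for DNA repair, and the allele is in every cell of the animal, not in 1 cell type. The labels give no age and leave unsaid whether the samples came from separate animals. The p-values therefore measure only how these samples vary, and part of that may be technical. The libraries held 18303913 to 31261889 counts, so that 3 counts, the upper limit a count of 0 allows, stand for 0.0960 to 0.164 CPM (counts scaled to library size by TMM). This limit covers counting error only.

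The mitochondrial ribosome makes the few proteins that mitochondrial DNA encodes, all of them hydrophobic subunits of the respiratory chain and the ATP synthase. Its RNAs are transcribed inside the organelle, whereas all of its proteins are encoded in the nucleus, made in the cytosol and imported. Many of these proteins belong to families shared with bacterial ribosomes, and others are found only in mitochondria.

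In the Ercc1 delta/+ samples, most mitochondrial ribosomal protein genes stood a little under their wild type level, and no single one passed the test over all genes. The log2 fold change (Ercc1 delta/+ over wild type) was negative for 76 of 78 members, where 50.5% of all genes tested had a negative value. The median over the members was -0.21, or 0.866 times the wild type level, and the median over all genes tested was -0.0028. The values ran from -0.63 for Mrpl33 to 0.04 for Mrpl38. By edgeR's quasi-likelihood test with Benjamini-Hochberg adjustment over all genes, 0 of 78 members passed an adjusted p of 0.05, where 0.0464% of all genes tested did. At an unadjusted p under 0.05, 30 members had a negative and 0 a positive value, and the share with a negative value at this threshold was 9.65% over all genes tested. The members are short, and of 762 other genes in the range of the shortest 26 members by transcript length, 84.9% had a negative value and 36.7% one at an unadjusted p under 0.05. Of 1060 other genes in the range of the shortest 26 by coding length, these shares were 79.6% and 34.6%. With transcript length and GC content as an offset, the median of the members was -0.07, and 12 had an unadjusted p under 0.05. In 19 members (24.4%) every mutant library lay below every wild type library, against 6.88% of all genes tested. Within the range of the shortest 26 by transcript length, this share was 30.8% of members and 25.6% of other genes. By coding length it was 46.2% and 22.9%. In 0 members did every mutant library lie above. In whole tissue, fewer cells of a type and less RNA per cell cannot be told apart.

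Other tools placed some members past the threshold. DESeq2 called 9 members, Mrpl17, Mrpl27, Mrpl30, Mrpl33, Mrpl41, Mrpl52, Mrpl53, Mrpl57 and Mrps33, all with negative values, where it called 1052 of 13901 genes with an adjusted p (7.57%). Limma-voom called Mrpl33 alone of the members, and 52 genes in all (0.345%). The authors' deposited table gave an adjusted p under 0.05 to 3 members, Mrpl33 (0.0215), Mrpl53 (0.0386) and Mrps33 (0.0462), and to 371 of its 19931 rows in all.

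**Figure D1:**
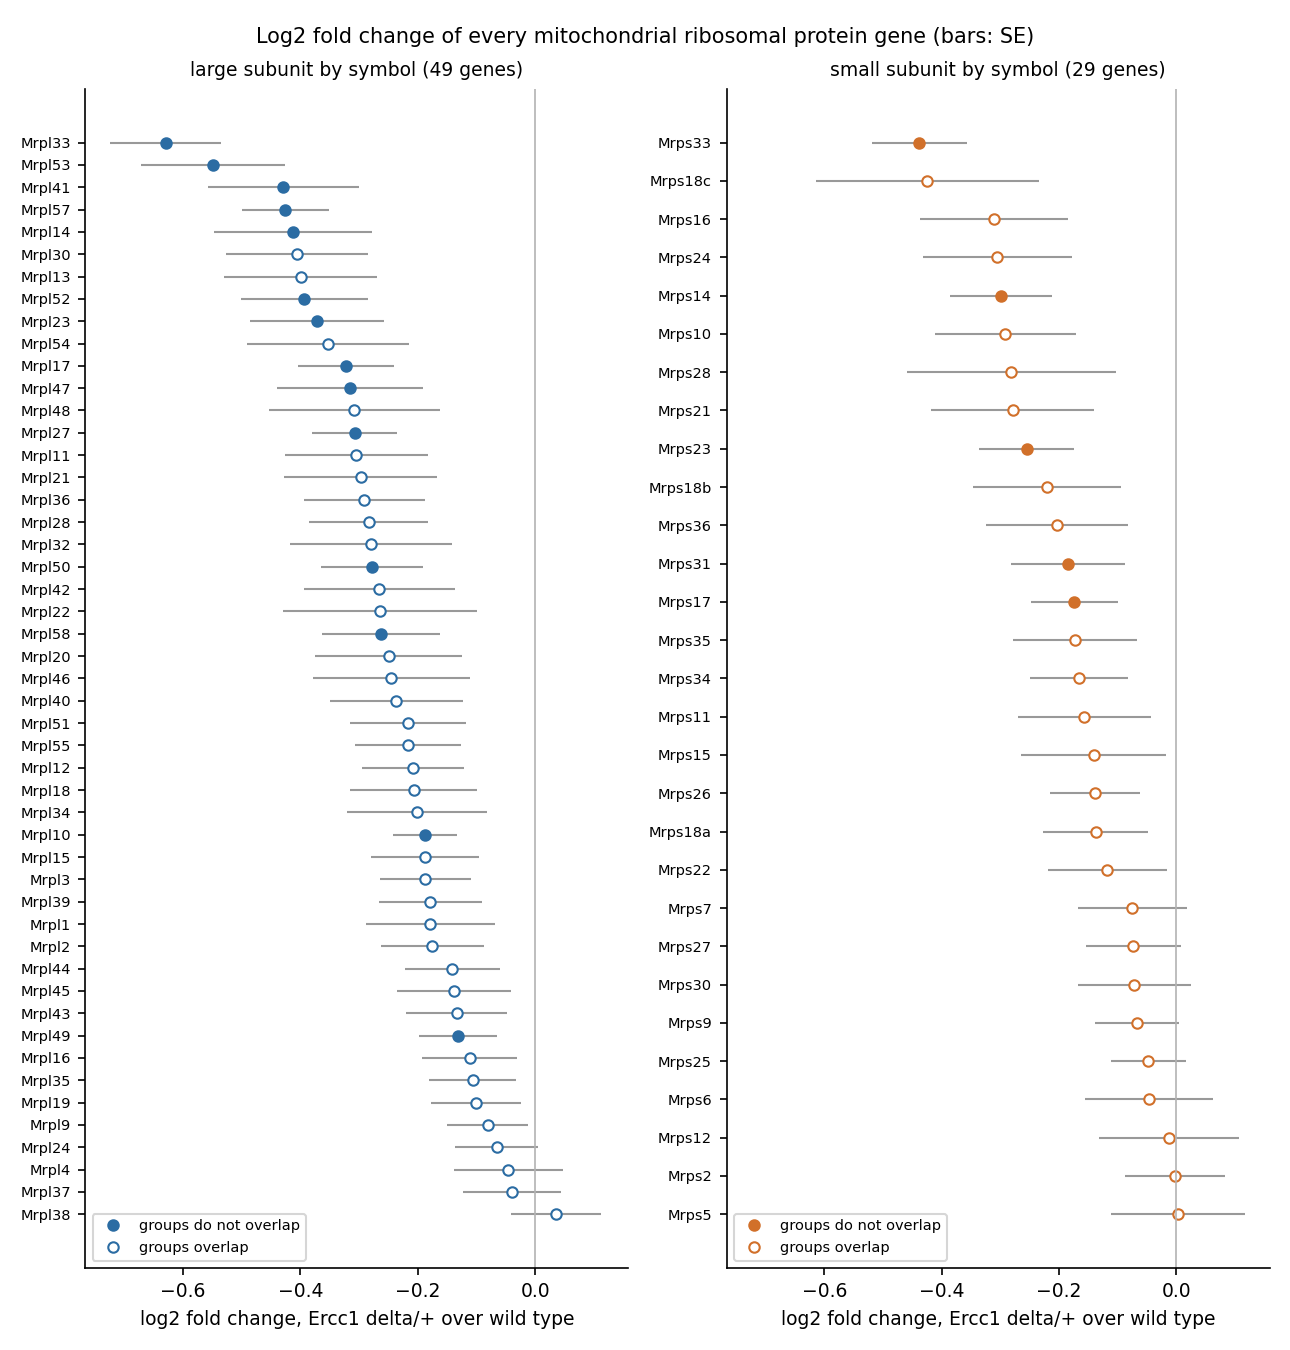
Each point is the log2 fold change of 1 member, Ercc1 delta/+ over wild type, with its standard error as a bar; large subunit genes are on the left and small subunit genes on the right, ordered by value, and filled points mark genes whose 4 mutant libraries all lie below the 4 wild type libraries. Nearly all points lie left of 0, from -0.63 (Mrpl33) to 0.04 (Mrpl38). The filled points number 14 (28.6%) in the large and 5 (17.2%) in the small subunit, against 6.88% of all genes tested.

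The promoters of these genes were searched for 4 short motifs, since the values of the members lay on the same side of 0. RefSeq promoter windows of 300 bases (250 before to 50 after the start of the gene, assembly GRCm38.p6) were found for 69 of the 78 members, in 75 windows. The core of the NRF1 site, GCGCATGCG, was in 9.33% of the 75 windows and in 3.11% of the 15023 windows of genes tested. NRF1 is a transcription factor known for nuclear genes of mitochondrial proteins. CCGGAAG, a core of the ETS family that GABPA (also called NRF2 in this context) binds, was in 34.7% of member windows against 14.9%. AAGATGGCG, bound by YY1, was in 10.7% against 2.52%, and TATAAA, the TATA box, in 6.67% against 7.71%. In the bases before the start alone, the YY1 letters were in 2.67% of member windows against 0.972%, since most of their matches lie after the start, and the ETS core was in 24.0% against 11.6%. Both strands were searched, and matches of different motifs were allowed to overlap. A match is a description of the letters in a window, and no match says only that these letters are not in this window.

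The NRF1 letters were before the start in 7 members, all shown here with 1 match each. Each line gives the GRCm38.p6 position, the strand of the gene, and the number of bases between the motif and the start. Capitals mark the match shown, GCGCATGCG or its reverse complement CGCATGCGC, read 5′ to 3′ along the gene's strand. In Mrpl9, Mrpl32 and Mrpl39 an overlapping match of the reverse complement is not marked. Mrpl32 has a further match, 14 bases before the start, that is not shown.
Mrpl9, chr3:94443298-94443326, + strand, 19 bases: aggcgcagctGCGCATGCGcggggtcctt
Mrpl10, chr11:97041437-97041465, + strand, 126 bases: cccagctccaCGCATGCGCatagcggccc
Mrpl17, chr7:105811088-105811108, - strand, 2 bases: ccgagttactGCGCATGCGtc
Mrpl22, chr11:58171621-58171649, + strand, 24 bases: gcctcggactGCGCATGCGtatagtcagc
Mrpl32, chr13:14613106-14613134, - strand, 78 bases: tttgacccttGCGCATGCGcaagaggggc
Mrpl39, chr16:84735351-84735379, - strand, 116 bases: aaggagaggcGCGCATGCGcccccgcgtg
Mrps18b, chr17:35916646-35916674, - strand, 215 bases: aacggcccgaCGCATGCGCactgggagca
The letters differ outside the capitals, and the motif lies anywhere from 2 to 215 bases before the start.

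The ETS core was more common, in 26 members, of which 18 had it before the start. The next 6 are examples, chosen after their values were seen from members with values under -0.30; capitals mark CCGGAAG or its reverse complement CTTCCGG.
Mrpl53, chr6:83109081-83109107, + strand, 9 bases: cagtgctactcCTTCCGGggtggaggt
Mrpl17, chr7:105811307-105811335, - strand, 230 bases: gcatgctccgcCCGGAAGgcgcctcctcc
Mrpl27, chr11:94653725-94653753, + strand, 48 bases: gtccgcaagacCCGGAAGtagatctatcc
Mrpl52, chr14:54426851-54426879, + strand, 40 bases: caagatgtcggCTTCCGGttttcccggca
Mrps16, chr14:20393547-20393575, - strand, 67 bases: ttgggggcgctCTTCCGGgcttcaggctc
Mrps18c, chr5:100798592-100798620, + strand, 149 bases: gggtcacgtgaCTTCCGGcccgggaagcg
The median log2 fold change was -0.26 in members with the ETS core in the window and -0.18 in those without it. For the NRF1 core the medians were -0.22 and -0.21, and for YY1 -0.15 and -0.22. With only matches before the start, the medians were -0.24 and -0.21 for the ETS core. For YY1, then in 2 members, they were -0.22 and -0.22. These differences were not tested.

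The targeted gene was examined before the libraries were compared. Ercc1 (RefSeq NM_007948), a subunit of an endonuclease of DNA repair, stood at 10.2, 12.9, 11.1 and 11.9 CPM in mutant replicates 1 to 4 and at 14.0, 15.3, 14.9 and 13.8 CPM in wild type replicates 1 to 4. Every mutant library lay below every wild type library, as in 6.88% of all genes tested. The level of this gene alone does not verify the genotype of a library. The log2 fold change was -0.34 (SE 0.10), and the adjusted p was 0.113 by edgeR's quasi-likelihood test.

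A pair of libraries stood apart from the rest of their groups in the mean level of the members. With each gene centred on its mean over the 8 libraries, the mean log2 level of the 78 members was -0.25, 0.07, -0.13 and -0.14 in mutant replicates 1 to 4 and 0.13, 0.14, 0.14 and 0.04 in wild type replicates 1 to 4. Mutant replicate 2 lay above wild type replicate 4, so the groups overlapped, while mutant replicates 1, 3 and 4 were below every wild type library. The summed level of the members was 1650, 1986, 1744 and 1744 CPM in the mutants and 2065, 2069, 2068 and 1923 CPM in the wild types, with mutant replicate 2 again above wild type replicate 4. Of 78 members, 65 in mutant replicate 1, 60 in replicate 3 and 59 in replicate 4 were below every wild type library, and 23 were in replicate 2. Mutant replicate 1 held the lowest of the 8 values for 46 members and replicate 2 held the highest for 12. Without mutant replicate 2, all 78 values were negative with a median of -0.26, and 9 members passed the adjusted p of 0.05 by edgeR's quasi-likelihood test, as did 310 genes in all (2.04%). Those 9 were Mrpl11, Mrpl23, Mrpl28, Mrpl30, Mrpl33, Mrpl48, Mrpl53, Mrpl57 and Mrps33. Mutant replicate 2 was the highest mutant in the mean of the members, so leaving it out lowers their mutant mean by construction. Leaving out any other single library gave 0 members past that threshold. Without mutant replicate 1 the median was -0.16, with 73 negative values, and without wild type replicate 4 it was -0.26, with 76.

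**Figure D2:**
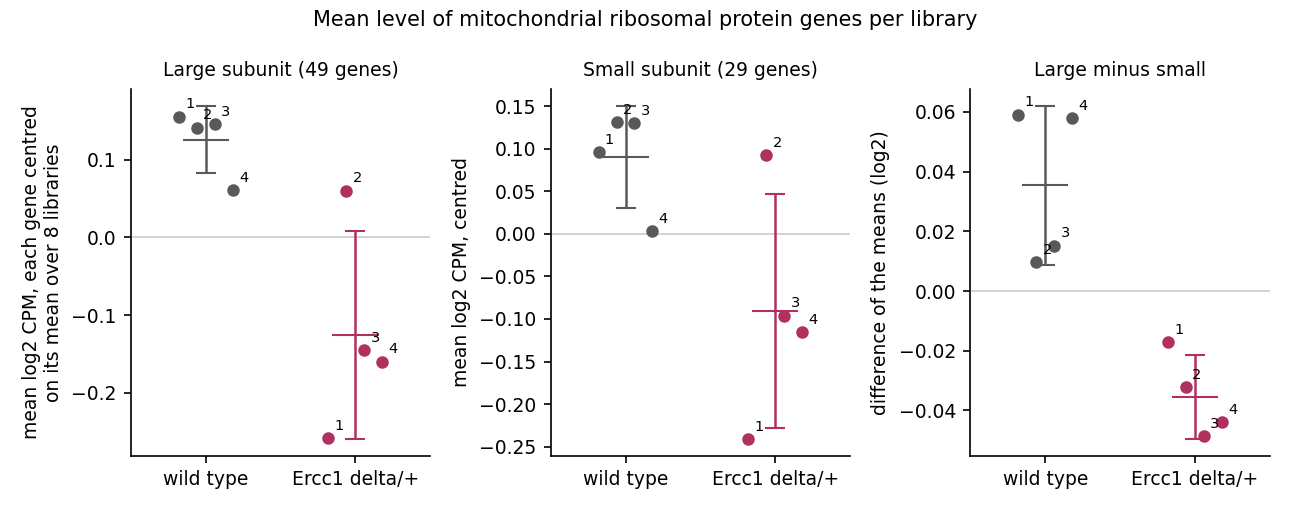
The mean log2 CPM of the large subunit genes, of the small subunit genes and the difference of both means are shown for each library (points, numbered by replicate), after centring each gene on its mean over the 8 libraries; crosses and bars are the group mean and SD (n = 4). Mutant replicate 2 sits at the level of wild type replicate 4 in the first panel and above it in the second, and in the third all mutants (-0.05 to -0.02) are below all wild types (0.01 to 0.06).

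The large subunit is the part of the ribosome that joins amino acids. Of its 49 genes, 48 had a negative log2 fold change, 23 of them (46.9%) at an unadjusted p under 0.05. In 14 (28.6%) the groups did not overlap. The median of the 49 values was -0.25. Over all genes tested the 2 shares were 9.65% and 6.88%. For other genes in the range of the shortest 26 members by transcript length, they were 36.7% and 25.6%. In the middle range they were 19.6% and 13.6%, and in the longest 6.00% and 4.39%.

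Mrpl33, which encodes the small protein bL33m of the bacterial L33 family, had the most negative value of all members. It stood at 8.26, 7.92, 8.96 and 8.59 CPM in mutant replicates 1 to 4 and at 12.1, 14.4, 12.2 and 13.6 CPM in the wild type replicates. Every mutant library was below every wild type library, and mutant replicate 2 was the lowest of the 8 here, unlike its place in the mean of the members. The means were 8.43 ± 0.447 and 13.1 ± 1.12 CPM (SD, n = 4 each). On the log2 scale the difference was -0.63 (SE 0.09), and its adjusted p of 0.0507 by edgeR's quasi-likelihood test was just over the threshold.

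Mrpl57 and Mrpl53 encode proteins of the large subunit that bacteria lack. Mrpl57 stood at 14.2, 14.0, 13.8 and 12.6 CPM in the mutants and at 18.2, 18.3, 18.8 and 17.9 CPM in the wild types. The spread within each group was small beside the gap between them, and no library crossed it. The log2 fold change was -0.43 (SE 0.07, adjusted p = 0.0529 by edgeR's quasi-likelihood test). Mrpl53 stood at 10.3, 15.5, 12.9 and 13.5 CPM in the mutants and at 19.6, 19.9, 19.7 and 17.2 CPM in the wild types. Mutant replicate 2 was again the highest mutant and wild type replicate 4 the lowest wild type, without overlap. Its log2 fold change was -0.55 (SE 0.12, adjusted p = 0.0788 by the same test).

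Mrpl27 encodes bL27m, whose bacterial relative reaches to the site where peptide bonds are made. It stood at 19.9, 20.2, 22.3 and 22.2 CPM in the mutants and at 27.6, 26.7, 25.3 and 25.3 CPM in the wild types, so the groups did not overlap. The log2 fold change was -0.31 (SE 0.07). Its exons overlap those of Eme1 on the opposite strand, and a pseudogene of Mrpl27 is annotated; the value is uncertain, since it is not known how strand and shared reads were treated in counting. Mrpl17, of the bacterial L17 family, stood at 23.6, 28.3, 29.6 and 26.2 CPM against 33.3, 32.2, 35.2 and 33.9 CPM, again without overlap, with a log2 fold change of -0.32 (SE 0.08). Mrpl52, found only in mitochondria, stood at 10.9, 15.3, 14.0 and 13.6 CPM against 18.1, 18.2, 16.9 and 17.3 CPM, with a log2 fold change of -0.39 (SE 0.11). In Mrpl17 and Mrpl52 the lowest library was mutant replicate 1.

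The base of the flexible stalk that draws translation factors to the ribosome is made by the product of Mrpl10, and the stalk itself by that of Mrpl12. Mrpl10 stood at 49.0, 50.0, 51.0 and 47.5 CPM in the mutants and at 56.1, 56.4, 58.4 and 54.0 CPM in the wild types. The groups did not overlap, and the difference was small: -0.19 (SE 0.05) on the log2 scale. Mrpl12 stood at 35.5, 42.0, 34.9 and 39.0 CPM against 44.9, 46.1, 45.6 and 38.1 CPM, and wild type replicate 4 lay among the mutants. Its log2 fold change was -0.21 (SE 0.09).

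Mrpl58 encodes a peptidyl-tRNA hydrolase built into the large subunit, which frees stalled chains. It stood at 16.2, 20.9, 19.0 and 15.8 CPM against 21.3, 21.5, 22.6 and 21.0 CPM, without overlap by a narrow gap, and its log2 fold change was -0.26 (SE 0.10). Mrpl41 stood at 20.5, 32.9, 28.4 and 27.9 CPM against 37.5, 35.3, 34.9 and 39.9 CPM, with a log2 fold change of -0.43 (SE 0.13). Mrpl30 stood at 16.7, 25.0, 19.3 and 19.8 CPM against 26.2, 29.4, 26.7 and 24.8 CPM, with a log2 fold change of -0.41 (SE 0.12). In both genes mutant replicate 2 was the highest mutant, and in Mrpl30 it passed wild type replicate 4. The other large subunit genes without overlap between the groups were Mrpl14 (-0.41), Mrpl23 (-0.37), Mrpl47 (-0.32), Mrpl50 (-0.28) and Mrpl49 (-0.13), chosen after their values were seen.

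At the other end of the large subunit, 3 genes had values near 0. Mrpl38 stood at 36.8, 46.1, 41.2 and 38.8 CPM in the mutants and at 40.4, 38.6, 40.7 and 39.1 CPM in the wild types. The mutants lay on both sides of the wild types, with a log2 fold change of 0.04 (SE 0.08). Mrpl37 had a log2 fold change of -0.04 (SE 0.08) and Mrpl4, of the bacterial L4 family, of -0.05 (SE 0.09), and the groups overlapped in both.

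**Figure D3:**
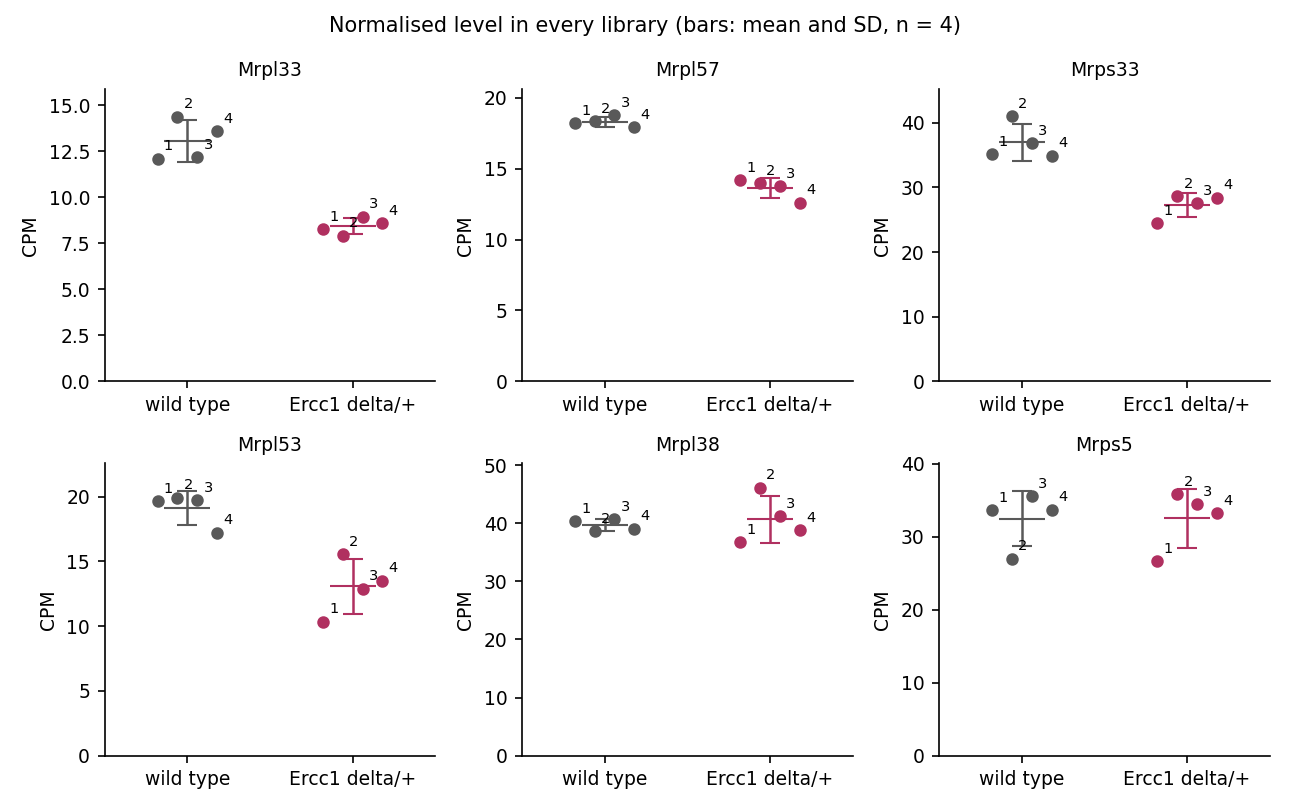
Normalised levels in CPM on axes that start at 0 are shown for 4 members with small p-values (Mrpl33, Mrpl57, Mrps33, Mrpl53) and for the member with the most positive value in each subunit (Mrpl38, Mrps5); points are libraries, numbered by replicate, with the group mean and SD (n = 4). In the first 4 genes no mutant library reaches the wild types, as in Mrpl33 with 8.43 against 13.1 CPM, and in Mrpl38 and Mrps5 the groups overlap.

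The small subunit reads the messenger RNA. Of its 29 genes, 28 had a negative log2 fold change, 7 of them (24.1%) at an unadjusted p under 0.05. In 5 (17.2%) the groups did not overlap. The median of the 29 values was -0.17. Over all genes tested the 2 shares were 9.65% and 6.88%. For other genes in the range of the shortest 26 members by transcript length, they were 36.7% and 25.6%. In the middle range they were 19.6% and 13.6%, and in the longest 6.00% and 4.39%.

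Mrps33, found in mitochondria and not in bacteria, had the most negative value. It stood at 24.5, 28.6, 27.6 and 28.4 CPM in the mutants and at 35.1, 41.0, 36.8 and 34.9 CPM in the wild types. The highest mutant library was well below the lowest wild type library. Its log2 fold change was -0.44 (SE 0.08, adjusted p = 0.0586 by edgeR's quasi-likelihood test). The table holds a second, shorter transcript of Mrps33, and when every row was tested on its own the values were -0.50 for it and -0.44 for the longer one.

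Mrps14, of the bacterial S14 family, stood at 21.8, 18.7, 21.5 and 23.6 CPM against 26.2, 28.4, 25.8 and 24.9 CPM, a log2 fold change of -0.30 (SE 0.09). Mrps23, found only in mitochondria, stood at 23.3, 25.0, 27.4 and 28.7 CPM against 31.7, 29.5, 32.8 and 30.6 CPM, a log2 fold change of -0.26 (SE 0.08). Mrps17, of the bacterial S17 family, stood at 23.7, 24.5, 23.3 and 24.6 CPM against 25.9, 30.4, 25.8 and 26.5 CPM, a log2 fold change of -0.17 (SE 0.07). In these 3 genes the groups did not overlap, although in Mrps17 the nearest libraries were close. In Mrps16 (-0.31, SE 0.13), Mrps10 (-0.29, SE 0.12) and Mrps24 (-0.31, SE 0.13), of the bacterial S16, S10 and S3 families, mutant replicate 2 lay among the wild types. Mrps31 (-0.18), chosen after its values were seen, was the remaining small subunit gene without overlap.

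The small subunit also held members at or near 0. Mrps12, whose bacterial relative S12 lies at the decoding site, stood at 25.5, 33.0, 23.3 and 27.8 CPM in the mutants and at 29.9, 29.6, 27.1 and 23.9 CPM in the wild types, a log2 fold change of -0.01 (SE 0.12). Mrps2, of the bacterial S2 family, had means of 33.6 ± 1.77 and 33.6 ± 3.38 CPM (SD, n = 4 each). Mrps5, of the S5 family, had means of 32.5 ± 4.05 and 32.5 ± 3.75 CPM. In all 3 the groups overlapped, and the SE of the log2 fold change was 0.12 for Mrps12, 0.09 for Mrps2 and 0.12 for Mrps5. Whether these genes differ from those with more negative values was not tested.

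Mammals have 3 genes of the ribosomal protein S18 family, and their products sit in different places. Mrps18a, whose protein is in the large subunit despite its symbol, stood at 30.5, 38.6, 32.9 and 32.2 CPM against 40.2, 36.7, 37.0 and 33.6 CPM (log2 fold change -0.14, SE 0.09). Mrps18b stood at 13.1, 18.9, 16.5 and 14.0 CPM against 17.4, 19.4, 19.5 and 16.5 CPM (-0.22, SE 0.13). Mrps18c stood at 5.48, 10.2, 8.42 and 5.98 CPM against 9.05, 11.1, 9.74 and 10.4 CPM (-0.42, SE 0.19). The groups overlapped in all 3 genes, each time through mutant replicate 2 and in Mrps18b also through replicate 3, and differences among the 3 values were not tested. Mrps30, also a protein of the large subunit, had a value of -0.07 (SE 0.10). Mrps36, which is now known as a part of the oxoglutarate dehydrogenase complex, had a value of -0.20 (SE 0.12).

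The medians of the subunits, -0.25 for the large and -0.17 for the small, differed by less than the spread of values within either subunit, whose middle 50% ran from -0.31 to -0.18 and from -0.28 to -0.07. Per library, the mean of the large minus that of the small subunit was -0.02, -0.03, -0.05 and -0.04 in mutant replicates 1 to 4 and 0.06, 0.01, 0.02 and 0.06 in the wild types. This small difference did not overlap between the groups, mutant replicate 2 included. With subunits read from the place of the protein (Mrps18a and Mrps30 in the large, Mrps36 left out), the medians were -0.24 over 51 and -0.17 over 26 genes. The 48 members of families shared with bacteria had a median of -0.21, with 47 negative, and the 29 found only in mitochondria had a median of -0.18, with 28 negative. Mrps36 is in neither class. Groups did not overlap in 9 of the former (18.8%) and 10 of the latter (34.5%), against 6.88% of all genes tested. For other genes in the ranges of the shortest, middle and longest 26 members by transcript length, this share was 25.6%, 13.6% and 4.39%. The difference between the classes was not tested.

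Length was compared next, since across all genes tested the log2 fold change went with transcript length (Spearman coefficient 0.395 over 14735 genes). Coefficients here are across genes, which are not independent replicates, and share the same 8 libraries, so no p is given. Over the 78 members the coefficient with transcript length was 0.36, 0.41 in the large and 0.31 in the small subunit. With coding length, the stretch that is translated, it was 0.58, 0.66 in the large and 0.51 in the small subunit, and 0.39 over all genes. Coding length was looked at after seeing the data, because some annotated member transcripts carry long untranslated ends: Mrpl17 is listed at 7300 bases with 528 coding, Mrps25 at 6073 with 513 and Mrpl57 at 2877 with 306. The members are short. Their median transcript length was 1224.5 bases against 3005 over all genes tested, and their median coding length 574.5 against 1401 bases.

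By coding length, the 26 shortest members (195 to 477 bases) had a median of -0.29, the middle 26 (480 to 753 bases) of -0.25 and the longest 26 (756 to 1326 bases) of -0.14. Other genes tested in the same ranges had medians of -0.19 (1060 genes), -0.11 (1719 genes) and -0.03 (3961 genes). The order was the same in both sets, and the members lay lower in each range. By transcript length, the medians of the members were -0.28 (405 to 995 bases), -0.18 (1018 to 1708 bases) and -0.18 (1764 to 7300 bases), beside -0.24, -0.12 and 0.02 for other genes. The shortest members by transcript length were thus close to other short genes, and the longest stood further from theirs.

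A smooth trend of the log2 fold change over length, drawn through all genes tested, gives the same picture. Of 78 members, 57 lay below the trend over transcript length, by a median of -0.08, and 63 below the trend over coding length, by a median of -0.11. For coding length, 42 of 49 large subunit genes (median -0.12) and 21 of 29 small subunit genes (median -0.06) were below it. Mrpl53 (-0.35) and Mrpl33 (-0.34) were far below the trend over coding length, and Mrps12 (0.17) and Mrps6 (0.15) above it. With transcript length and GC content entered as an offset in the fit, the median of the members was -0.07, with 59 negative values, and the coefficient of the members with transcript length was -0.28 in place of 0.36. With coding length in its place it was -0.10, with 65 negative values. The part of length in the values of the members was not tested further.

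**Figure D4:**
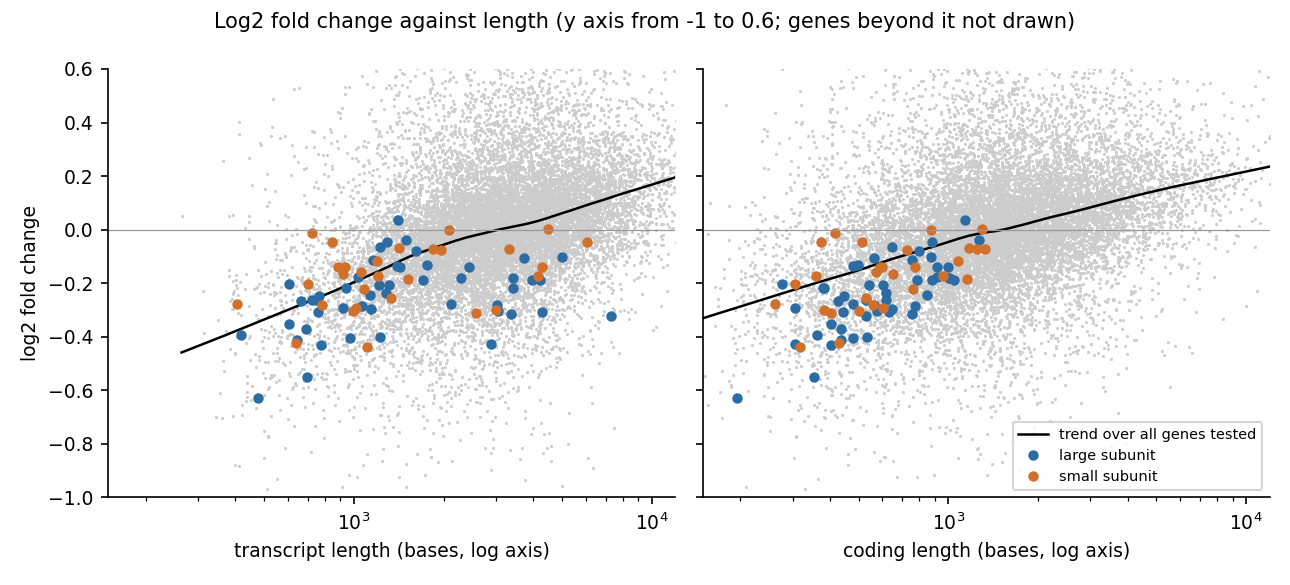
The log2 fold change of every gene tested (grey) and of the large (blue) and small (orange) subunit genes is plotted against transcript length (left) and coding length (right), both on log axes in bases; the line is the lowess trend over all genes. The members sit mostly at short lengths and below the line, 57 of 78 on the left and 63 of 78 on the right.

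Levels can be compared between genes only per length, here as wild type CPM per kilobase of the annotated transcript. The stretch that was counted is not known, so members with long untranslated ends may be placed too low. The highest were Mrps21 with 56.0 ± 6.83, Mrpl41 with 47.5 ± 2.98, Mrpl52 with 42.2 ± 1.48, Mrps18a with 41.7 ± 3.05, Mrpl20 with 39.3 ± 2.55 and Mrps12 with 38.3 ± 3.83 CPM per kilobase (SD, n = 4). Mrpl41 and Mrpl52 differed by more than the sum of their SDs, and the other neighbours in this order did not. Mrpl47, Mrpl32 and Mrps35 were the lowest, with 3.06, 3.49 and 3.87 CPM per kilobase. In CPM without regard to length, members ran from 7.94 (Mrps28) to 108 (Mrps25) in wild type. Members with higher wild type CPM had less negative log2 fold changes (Spearman coefficient 0.42 over 78 members, 0.088 over all genes); the wild type level enters both measures.

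Many of these genes start next to another gene on the opposite strand. A coding gene that was tested began within 1000 bases, pointing away, for 19 of 78 members (24.4%), against 8.94% of 14469 genes. Over the 19 partners the median value was -0.02, and 10 were negative. Their median transcript length was 2260 bases, against 1224.5 for the members. The part of length in the partners' values was not tested. Ska3, the partner of Mrpl57, had a value of 0.12, Helq, the partner of Mrps18c, of 0.04, and Apba3, the partner of Mrpl54, of 0.36, while the values of the 3 members were -0.43, -0.42 and -0.35. Sars2, a mitochondrial seryl-tRNA synthetase gene beside Mrps12, had a value of 0.00, near that of Mrps12. Other partners had more negative values than their member: Ndufs6 beside Mrpl36 (-0.42 and -0.29), Fau beside Mrpl49 (-0.47 and -0.13) and Psma2 beside Mrpl32 (-0.37 and -0.28). The partners named here were chosen after their values were seen. Exons of 26 members overlap another annotated gene, of which 17 overlap a coding gene, so reads of these members may be shared. Among them are Mrpl13 with Mtbp (-0.45), Mrpl47 with Ndufb5 (-0.35) and Mrps6 with Slc5a3 (0.62). Pseudogenes of Mrpl23, Mrpl27, Mrpl48 and Mrps36 are annotated as well.

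Mitochondrial ribosomal proteins named by other symbols were set beside the members. All 5 had negative values with a median of -0.17, 2 of them at an unadjusted p under 0.05, against 9.65% of all genes tested. Chchd1, a protein of the small subunit, stood at 9.79, 16.7, 12.6 and 12.2 CPM in the mutants and at 22.4, 18.4, 19.5 and 20.3 CPM in the wild types. The groups did not overlap, and the log2 fold change was -0.65 (SE 0.15, adjusted p = 0.0823 by edgeR's quasi-likelihood test), beside -0.63 for Mrpl33. Ptcd3, a pentatricopeptide repeat protein of the small subunit, had a value of -0.17 (SE 0.06), also without overlap. Of all genes tested, 6.88% had every mutant library below every wild type library. Dap3 (-0.09, SE 0.07) and Aurkaip1 (-0.19, SE 0.10) of the small subunit and Gadd45gip1 (-0.04, SE 0.07) of the large subunit overlapped between the groups.

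The other genes of mitochondrial translation lay nearer to 0, and 0 genes of any of these lists passed an adjusted p of 0.05 by edgeR's quasi-likelihood test. Of 12 translation factor genes tested of 14 listed, 9 were negative, 2 of them (16.7%) at an unadjusted p under 0.05, with a median of -0.08. Over all genes tested, 9.65% had a negative value at this threshold. Mtrf1, a release factor gene, had a value of -0.52 (SE 0.13), the initiation factor gene Mtif2 of -0.23 (SE 0.09), and the elongation factor gene Gfm1 of 0.12 (SE 0.08). Of 25 assembly and rRNA modification genes tested of 27 listed, 21 were negative, 5 (20.0%) at an unadjusted p under 0.05, with a median of -0.05. Ngrn (-0.21, SE 0.06), the GTPase gene Gtpbp10 (-0.38, SE 0.11) and the rRNA methyltransferase gene Tfb1m (-0.34, SE 0.11) did not overlap between the groups.

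The 17 mitochondrial aminoacyl-tRNA synthetase genes, which charge tRNAs, had 10 negative values and a median of -0.02, and 0 were negative at an unadjusted p under 0.05. Rars2 had a value of -0.23 (SE 0.10), Ears2 of 0.21 (SE 0.17) and Vars2 of 0.12 (SE 0.07). Of 15 genes for mitochondrial mRNA handling and membrane insertion, 11 were negative, with a median of -0.10. At an unadjusted p under 0.05, 2 (13.3%) were negative, against 9.65% of all genes tested. Coa3, a factor for synthesis of cytochrome oxidase subunit 1, had a value of -0.36 (SE 0.13), Slirp, an mRNA-binding protein gene, of -0.38 (SE 0.16) and Ptcd2 of -0.19 (SE 0.09), each with overlap. The median transcript length was 2605.5 bases for the translation factors, 1821 for the assembly genes, 3336 for the synthetases and 2604 for mRNA handling, against 1224.5 for the members. Differences between these lists and the members were not tested.

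**Figure D5:**
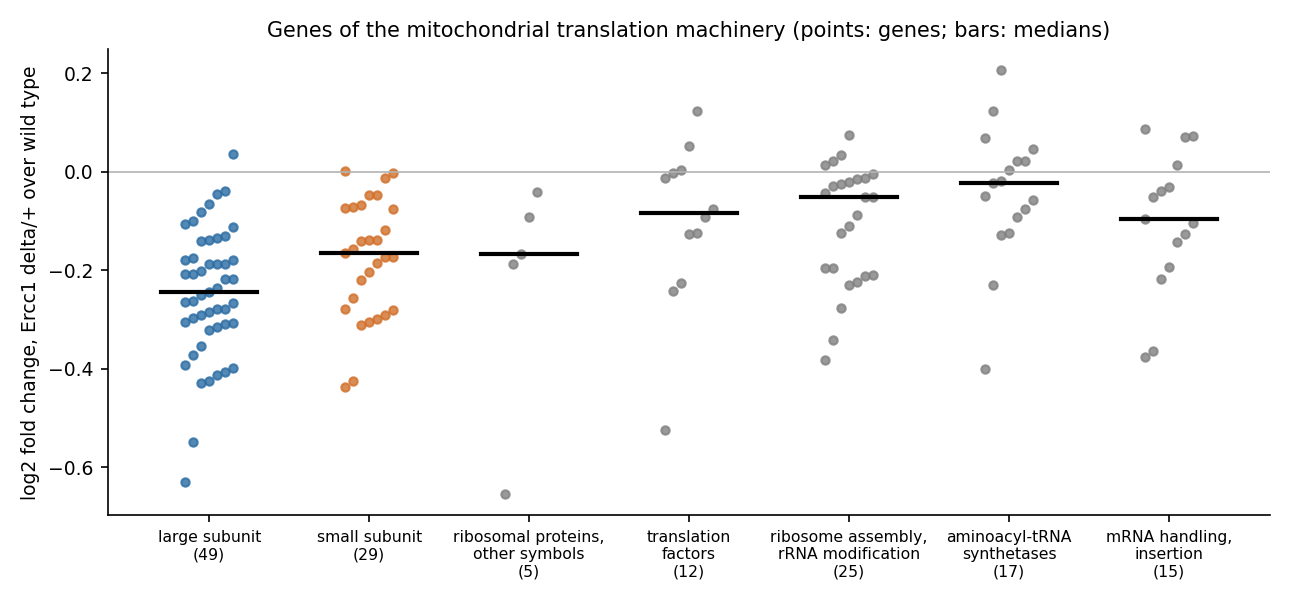
Each point is the log2 fold change of 1 gene, Ercc1 delta/+ over wild type, for the subunits and for 5 lists of genes of mitochondrial translation, with the number of genes tested in brackets; bars are medians. The medians run from -0.25 in the large subunit to -0.02 in the aminoacyl-tRNA synthetases.

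Markers of the cell types in the dissected tissue were examined beside these values. Neuron markers were present in every library (6 genes, 4826 to 5960 CPM summed in the mutants and 4386 to 5481 CPM in the wild types). So were the 5 dopaminergic markers that define the region, all with negative log2 fold changes (193 to 386 and 289 to 459 CPM). The dopaminergic values ran from -0.33 to -0.11, and the groups overlapped in all 5 genes. Their lowest unadjusted p was 0.163 by edgeR's quasi-likelihood test. Of the 5 choroid plexus markers, all had positive log2 fold changes, and their sum was 67.2 to 1111 CPM in the mutants and 52.7 to 144 CPM in the wild types; none was at 0 in any library. The 3 oligodendrocyte precursor markers also had positive values (189 to 243 against 164 to 191 CPM). With the mean of the choroid plexus markers as a covariate, added after seeing the data, the median of the members was -0.24, with 74 negative values, and 16 members had an unadjusted p under 0.05. In some marker lists single libraries took the same place as in the members, and in others they did not. Both blood markers tested, of 3 listed, had negative values (Hba-a1 -0.45, SE 0.14), and their mean centred log2 level was -0.36, 0.19, -0.38 and -0.14 in mutant replicates 1 to 4 against 0.04, 0.20, 0.20 and 0.26 in the wild types. As for the members, mutant replicate 2 was the highest mutant. Over the 6 oligodendrocyte markers the mean was -0.33, 0.21, 0.09 and -0.08 against -0.01, 0.11, 0.41 and -0.40. Over the 6 neuron markers it was 0.03, 0.14, -0.08 and -0.02 against 0.04, 0.04, 0.04 and -0.20. In both lists mutant replicate 2 was the highest mutant and wild type replicate 4 the lowest wild type, as in the members. Mutant replicate 1, the lowest library for the members, was the highest mutant for astrocyte (0.23), microglia (0.21) and oligodendrocyte precursor markers (0.32). For endothelium markers it was at 0.27, under mutant replicate 2 at 0.33. Wild type replicate 4 was also the lowest wild type for astrocyte (-0.22) and microglia markers (-0.25). The part of these cell types in the members' values was not tested. Depth also went with genotype, since mutant replicates 1, 2 and 4 and wild type replicate 2 had the lowest totals, so each depth group has 1 library of a genotype and cannot be compared by itself. With a term for depth group added, 76 members were negative, with a median of -0.24, and 23 had an unadjusted p under 0.05.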

How the data were processed

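Poly(A) RNA of ventral midbrain was sequenced in 4 Ercc1 delta/+ and 4 wild type samples, pooled in 1 lane, per the labels' protocols. The deposited table has 19931 rows, 1 per RefSeq transcript, with raw counts (whole numbers per sample) and, from the authors' own comparison, a log2 fold change, a p-value and an adjusted p per row. TopHat 1.3.1, edgeR and the mm9 build are named in the submitters' processing notes; which tool counted the reads, and how it handled strand and multi-mapping reads, was not given in the sources used here. The lowest total of a row is 31 counts, so rows of lower total are not in it.

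Rows were matched to symbols through RefSeq (GRCm38.p6) and GENCODE M21 tables: 19456 matched and 475 did not. Because the files use mm9, these references served only for names, lengths, GC content, neighbours and promoter sequence, and no position was converted between builds. For 2832 genes with more than 1 row the row of highest total was used, and 152 genes whose counts matched those of another gene in every library were merged, none of them a member. Transcript length was found for 97.7% of genes and for all 78 members.

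The test was edgeR 4.0.16 (R 4.3.3), quasi-likelihood, TMM, filterByExpr, two-sided, with Benjamini-Hochberg adjustment over the 15074 genes kept and a threshold of 0.05. The SE is the log2 fold change divided by the root of F. The CPM of genes is scaled by TMM, with a prior count of 2 in log2 CPM. Length trends and offsets used lowess with a span of 0.3. Replicates of a group differed beyond sampling noise (chi-square over degrees of freedom at least 11.73), so each library counts once.

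The members, lists and tests were chosen with earlier results of these data known. The rule for naming genes took Ercc1; per subunit the 8 members with the smallest p, the 3 with the largest upward and the 3 with the highest level per length; Mrps18a, Mrps18b, Mrps18c, Mrps30, Mrps36, Mrpl12, Mrpl10 and Mrpl58; up to 3 of each pathway list by p; and the 5 ribosomal proteins with other symbols. The text says where a gene was chosen outside it. Alternatives were RLE scaling, no filter, a filter of 10 CPM in 4 libraries, DESeq2 1.42.0, limma-voom (limma 3.58.1), the replicate number as a block, a length and GC offset, a depth term, every row, other subunit and member definitions, and leaving out each library. The offset for coding length and GC content, coding length itself and the choroid plexus covariate were chosen after seeing the data.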

Additional observations from a re-analysis of the deposited data

Results flagged for a closer look

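In 11 of 108 groups of 4 libraries examined, 1 library lay far from the other 3, with a gap above Dixon's critical value; chance gives this in about 1 of 20 groups. Wild type replicate 4 was the low library in 7 of them. It held 17.2 CPM of Mrpl53, where the next wild type library held 19.6, 30.4 CPM of Mrpl4 (next 36.0), 38.1 CPM of Mrpl12 (next 44.9) and 38.8 CPM of the elongation factor gene Gfm1 (next 44.5). In the same library the mean log2 level of the 78 members was 0.0394 (next 0.13), that of the 49 large subunit genes 0.0609 (next 0.14), and the summed level of the members 1923 CPM (next 2065). Mutant replicate 2 was the high library for Mrpl37, with 42.2 CPM (next 35.2), and for Gfm1, with 53.3 CPM (next 45.7). Wild type replicate 2 was high for Mrps17, with 30.4 CPM (next 26.5), and wild type replicate 3 was low for the glutamyl-tRNA synthetase gene Ears2, with 5.77 CPM (next 7.02). These groups share their 8 libraries, so the counts are not independent of one another.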

How the results depend on the processing

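Of the 78 members, 49 had a negative log2 fold change in all 19 alternatives, and 4 more (Mrpl22, Mrpl47, Mrps18c and Mrps28), which the stricter filter left out, in the other 18. The median of the members was negative in all of them, from -0.26 without mutant replicate 2 to -0.0721 (length and GC offset) and -0.10 (coding length and GC offset); leaving out 1 library gave -0.26 to -0.16, -0.31 to -0.18 for the large and -0.22 to -0.12 for the small subunit. With these offsets the large subunit had medians of -0.12 and -0.12 and the small subunit of -0.0288 and -0.0513. The large minus small median, -0.08, was -0.10 by limma-voom, -0.0540 with the choroid plexus covariate and -0.0870 to -0.0563 without 1 library. The count of genes past the threshold, 7, was 33 with RLE scaling, 176 with the stricter filter, 1052 by DESeq2, 52 by limma-voom, 4 with every row, 1 with either offset and with the depth term, 0 with the choroid plexus covariate and 0 to 310 without 1 library. The count of members past it, 0, was 1 with RLE scaling (Mrpl33), 3 with the stricter filter (Mrpl33, Mrpl57, Mrps33), 9 by DESeq2, 1 by limma-voom and 0 to 9 without 1 library; 9 came without mutant replicate 2. Negative members numbered 73 to 78 without 1 library. The Spearman coefficient with transcript length was -0.28 with the length and GC offset, 0.58 with coding length and 0.32 to 0.43 without 1 library. Before the start alone, the ETS core was in 24.0% and the YY1 letters in 2.67% of member windows.

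The other 25 members had a positive value in at least 1 alternative. Some of them were not near 0 in the main test: Mrpl42 (-0.27), Mrpl51 (-0.22) and Mrpl34 (-0.20) had highest values of 0.0657, 0.0171 and 0.0391. Values of the genes named in the report changed sign as follows. With the length and GC offset the values were 0.0256 for Mrpl37, 0.00651 for Mrpl4, 0.00669 for Mrps17, -0.0117 for Mrps5, 0.0507 for Mrps2, 0.18 for Mrps12, 0.11 for Mrps21, 0.0374 for Mrps18a, 0.11 for Mrps36 and -0.0104 for Vars2. With the coding length and GC offset they were 0.0396 for Mrps17, 0.0656 for Mrps2, 0.12 for Mrps12, 0.0416 for Mrps36, -0.0251 for Vars2 and 0.0387 for Gadd45gip1. Mrps5 was at -0.00418 with the stricter filter, -0.00513 by limma-voom and -0.00364 with every row. Mrps2 was at 0.00391 with RLE scaling, 0.00440 by DESeq2, 0.00439 by limma-voom and 0.00618 with the choroid plexus covariate, where Mrps12 was at 0.0334. Without 1 library, values ran from -0.0281 to 0.0820 for Mrpl38, -0.11 to 2.90e-05 for Mrpl4, -0.0751 to 0.0865 for Mrps5, -0.0681 to 0.0383 for Mrps2, -0.11 to 0.0579 for Mrps12 and -0.0830 to 0.00571 for Gadd45gip1. The cause was not tested.

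The labels' replicate numbers are shared by both groups. The deviations of same-numbered libraries from their group means had correlations of -0.27, 0.17, -0.12 and 0.26. With mixed signs they show no clear pairing by number, and 4 libraries per group cannot settle whether the numbers pair the samples. With the replicate block, 0 genes and 0 members passed, the median of the members was -0.21 with 75 negative, and Mrps2 was at 0.00181. Depth allowed 0.0960 to 0.164 CPM, without TMM scaling, for a count of 0, far below every member.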
